A study of Homo sapiens with 42 samples.

Results

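The 7 genes SOCS1, SOCS2, SOCS3, CISH, PIM1, PIM2 and OSM are known targets of the transcription factor STAT5. They were found by symbol among the 58243 genes of the count tables, each on 1 gene identifier, and their levels were followed in all 14 groups of libraries. The libraries came from K562, an established human line of chronic myeloid leukemia that carries the fusion kinase BCR-ABL1, so every group shares that kinase and 1 cell line. Poly(A) mRNA of whole cells was sequenced from untreated cells (CTRL), from cells given 1 μM imatinib for 1, 6 or 18 h (IM 1h, IM 6h, IM 18h), from cells given 5 μM JTE-607 for 1, 6 or 18 h (JTE 1h, JTE 6h, JTE 18h), and from cells in medium with 110 mM added KCl for 1 or 3 h (KCl 1h, KCl 3h). Nuclear RNA depleted of ribosomal RNA was sequenced for CTRL, IM 1h, IM 18h, JTE 1h and KCl 1h. Each group had 3 biological replicates. Imatinib blocks the ABL kinase, JTE-607 inhibits CPSF73, the nuclease that cuts new transcripts at their 3′ ends, and added KCl makes the medium hyperosmotic.

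STAT5 is phosphorylated by kinases such as JAK2 or BCR-ABL1, forms a dimer, enters the nucleus and binds a palindromic DNA element in the control regions of its targets. CISH and the SOCS proteins feed back on this pathway: they hold an SH2 domain, which binds phosphorylated tyrosines, and a SOCS box, which recruits a ubiquitin ligase. PIM1 and PIM2 are serine/threonine kinases that promote survival and protein synthesis and are active as soon as they are made. OSM encodes oncostatin M, a secreted cytokine of the interleukin 6 family that itself signals through JAK kinases.

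The binding element was searched as TTCNNNGAA, which reads the same on both strands, in RefSeq promoter windows of GRCh38.p14 that run from 250 bases before to 50 bases after a start site. The window of CISH (chr3:50611725-50612024, minus strand) held 4 matches, all before the start. Of 35116 such windows of all genes, 2689 (7.66%) held at least 1 match and 7 (0.0199%) held 4 or more. The windows of SOCS1 (chr16:11256155-11256454, minus strand), PIM1 (chr6:37169902-37170201, plus strand) and PIM2 (chrX:48918975-48919274, minus strand) held none. The 2 windows listed for SOCS3 belong to other start sites than the one in the count tables and also held none. SOCS2 and OSM were not searched. Stretches of CISH are shown because its window held the most matches of the windows searched for the members. They run 5′ to 3′ on the minus strand, with each match in capitals. The matches of the first CISH stretch lie 222 to 241 bases before the RefSeq start and those of the second 104 to 129 bases before it.
CISH, chr3:50611992-50612021: cccgttTTCCTGGAAagTTCTTGGAAatct
CISH, chr3:50611832-50611907: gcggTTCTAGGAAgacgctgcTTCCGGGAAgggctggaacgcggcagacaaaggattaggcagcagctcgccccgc
The narrower form TTCCNGGAA, which is contained in the first, occurs in 1.15% of all windows, and 4 windows (0.0114%) held 2 or more. TTCCTGGAA and TTCCGGGAA of CISH are of that form. A match of letters is not a measured binding site, and binding was not measured here.

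Levels were expressed as CPM, the count of a gene per 1000000 counts of its library, with library sizes scaled by TMM, a normalization that sets the bulk of genes equal between libraries. Total counts lay between 16439848 and 22505595 in the mRNA libraries, apart from replicates 2 and 3 of KCl 1h with 62953314 and 42474454, and between 16175394 and 25103205 in the nuclear libraries. All 12 erythroid and leukemia markers of K562, such as GATA1 with 166 ± 25.0 CPM in mRNA (SD, n = 3), had a mean of 1 CPM or more in CTRL of both fractions; their summed level was 4883 to 6174 CPM in mRNA CTRL and 3562 to 17299 CPM over all mRNA libraries. The summed CPM of the 3 hepatocyte markers reached 0.873 in any library, that of 3 T cell markers 6.47, of 3 B cell markers 6.49, of 3 monocyte markers 25.7 and of 3 fibroblast markers 18.9. At the top of these lists were COL1A2 with 14.1 ± 3.62 CPM and CD3D with 4.33 ± 1.66 CPM in nuclear CTRL, and LYZ with 8.89 ± 2.86 CPM in mRNA CTRL, whereas MS4A1 and TTR were at 0 in CTRL of both fractions.

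In untreated cells the PIM kinases were the most abundant members and OSM was close to absent. Per kilobase of exon, mRNA CTRL held 149 ± 69.7 CPM for PIM1, 52.1 ± 7.55 for PIM2, 15.1 ± 4.16 for SOCS2, 10.6 ± 1.62 for SOCS3, 10.6 ± 3.36 for CISH and 1.10 ± 0.155 for SOCS1 (SD, n = 3). The libraries of SOCS2, SOCS3 and CISH overlapped in this order, whereas PIM1, PIM2 and SOCS1 were each separate from their neighbors. In nuclear CTRL the levels per kilobase were 198 ± 24.4 CPM for PIM1, 77.3 ± 3.62 for PIM2, 21.9 ± 4.60 for CISH, 20.1 ± 3.00 for SOCS3, 12.7 ± 2.10 for SOCS2 and 2.45 ± 0.500 for SOCS1. There CISH and SOCS3 overlapped, and SOCS2 lay below both. The length used is that of all annotated exons of a gene together, such as 6776 bases for SOCS2 and 5112 for CISH. The order between genes therefore depends on the annotation, and which isoforms were present was not tested. With 22 to 28 counts per mRNA CTRL library, SOCS1 had the fewest counts of the 6 tested members.

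The OSM gene (chr22:30262829-30266840) had between 0 and 16 counts in any library. With all libraries it did not pass the filter on low counts in either fraction, so it has no test in the main fits. Nuclear CTRL held 0, 2 and 5 counts, nuclear IM 18h held 9, 7 and 8, and nuclear KCl 1h held 5, 8 and 16. Scaled to depth, each nuclear IM 18h and KCl 1h library was above each CTRL library, by a narrow margin for KCl 1h, whose lowest library and the highest of CTRL both held 5 counts. In mRNA the 3 CTRL libraries held 1 OSM count together, against 14 in KCl 1h, 11 in KCl 3h, 9 in JTE 6h and 7 in IM 18h. A library with no OSM count allows a level of up to 3 counts. In the deepest mRNA CTRL library, which itself held 1 OSM count, 3 counts are 0.158 CPM. The mRNA CTRL libraries with no OSM count were shallower, so their limit lies above that value. Such a limit covers counting error only.

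The first question was which of these genes change under imatinib, and how soon. Each fraction has 1 CTRL group, with no time given, as the reference for every time. Time in culture therefore cannot be told apart from treatment in comparisons with CTRL or between times. A gene was called when edgeR's quasi-likelihood test gave a Benjamini-Hochberg adjusted p under 0.05 and the log2 fold change was beyond 0.6 in either direction. After 1 h of imatinib, SOCS3 and CISH were lower in mRNA and in nuclear RNA, SOCS2 and PIM2 were close to CTRL, and PIM1 and SOCS1 lay in between. These are bulk libraries, in which fewer cells of a kind and less RNA per cell cannot be told apart. In mRNA, 2 of 6 tested members fell, beside 0.0166% of all tested genes called lower. That share is 3 of 18095 genes, namely SOCS3, ZFP36 and CISH. ZFP36 was named after its values were seen. In nuclear RNA, 2 of 6 members fell, beside 0.041% of all genes, or 9 of 21929. The nuclear libraries of CTRL and of each treatment pair by replicate number. With these numbers as a block 4 of 6 were called lower, PIM1 and SOCS1 included, beside 0.246% of all genes. DESeq2 without a block called 3, PIM1 included (adjusted p = 0.00037, DESeq2). Shares of all genes, here and below, are those of edgeR, and those of DESeq2 are not given. SOCS3 ranked first by p in both fractions, and CISH the third in mRNA and the second in nuclear RNA.

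SOCS3 (ENSG00000184557, chr17:78356778-78360077) encodes a feedback inhibitor of JAK kinases. Its mRNA stood at 27.6, 34.0 and 25.5 CPM in the CTRL libraries, at 4.76, 3.33 and 2.07 in IM 1h, at 4.10, 1.87 and 2.53 in IM 6h, and at 1.90, 1.95 and 2.59 in IM 18h. Every imatinib library was below every CTRL library, and the first hour held most of the fall. The log2 change at 1 h was -3.11 (SE 0.29, adjusted p = 2.3e-06, edgeR), which left 11.7% of the CTRL mean. At 6 h it was -3.34 (SE 0.29) and at 18 h -3.76 (SE 0.30). In nuclear RNA, SOCS3 went from 48.4, 52.2 and 64.2 CPM in CTRL to 5.92, 6.57 and 4.54 in IM 1h and to 1.96, 3.63 and 4.33 in IM 18h. The nuclear log2 changes were -3.27 at 1 h (SE 0.20, adjusted p = 1.3e-07, edgeR) and -4.08 at 18 h (SE 0.22). The nuclear IM 18h libraries were all below those of IM 1h, by 0.81 on the log2 scale (SE 0.23, adjusted p = 0.0077, edgeR). Without nuclear IM 18h replicate 1 or IM 1h replicate 2 this further fall was no longer called. In mRNA, IM 6h did not differ from IM 1h beyond its error (log2 difference -0.23, 95% interval -0.86 to 0.40).

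CISH (ENSG00000114737, chr3:50606490-50611831) encodes the founding member of the SOCS family and is a classical STAT5 target. In mRNA it stood at 58.7, 68.3 and 35.0 CPM in CTRL, at 22.1, 16.5 and 8.91 in IM 1h, at 8.10, 6.49 and 9.02 in IM 6h, and at 7.76, 8.37 and 6.77 in IM 18h. The IM 1h libraries lay below all CTRL libraries, and those of 6 and 18 h went lower still, with 1 IM 6h library (9.02 CPM) above the lowest of IM 1h. Its log2 change was -1.77 at 1 h (SE 0.30, adjusted p = 0.037, edgeR), -2.78 at 6 h (SE 0.32) and -2.82 at 18 h (SE 0.32). In mRNA the 1 h call no longer held when either of CTRL replicates 1 and 2 or either of IM 1h replicates 2 and 3 was left out, with adjusted p up to 0.49 over these fits, or when IM 1h and CTRL alone were fitted (adjusted p = 1.0). The titles number the first and second mRNA CTRL libraries the other way round from the study's own list of mapped reads. With these numbers exchanged the libraries of CTRL and IM 1h pair, and with the exchanged numbers as a block CISH had a log2 change of -1.78 (adjusted p = 6.3e-05, edgeR), in a fit that called 0.0276% of all genes as lower. In the nucleus CISH had 86.5, 116 and 133 CPM in CTRL, 21.5, 30.7 and 23.0 in IM 1h, and 11.9, 17.4 and 14.8 in IM 18h. The nuclear fall at 1 h was by 2.15 on the log2 scale (SE 0.19, adjusted p = 1.7e-05, edgeR), and this call held in every fit without 1 library. CISH overlaps MAPKAPK3, a kinase gene on the other strand, and shares 218 exon bases with it. The count tables were made with no strand option, so reads of such pairs cannot be told apart by strand. MAPKAPK3 had a log2 change of -0.04 at 1 h in mRNA (SE 0.17) and -0.11 in nuclear RNA (SE 0.11), and it fell by 0.95 in mRNA and by 1.22 in nuclear RNA at 18 h.

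**Figure D1:**
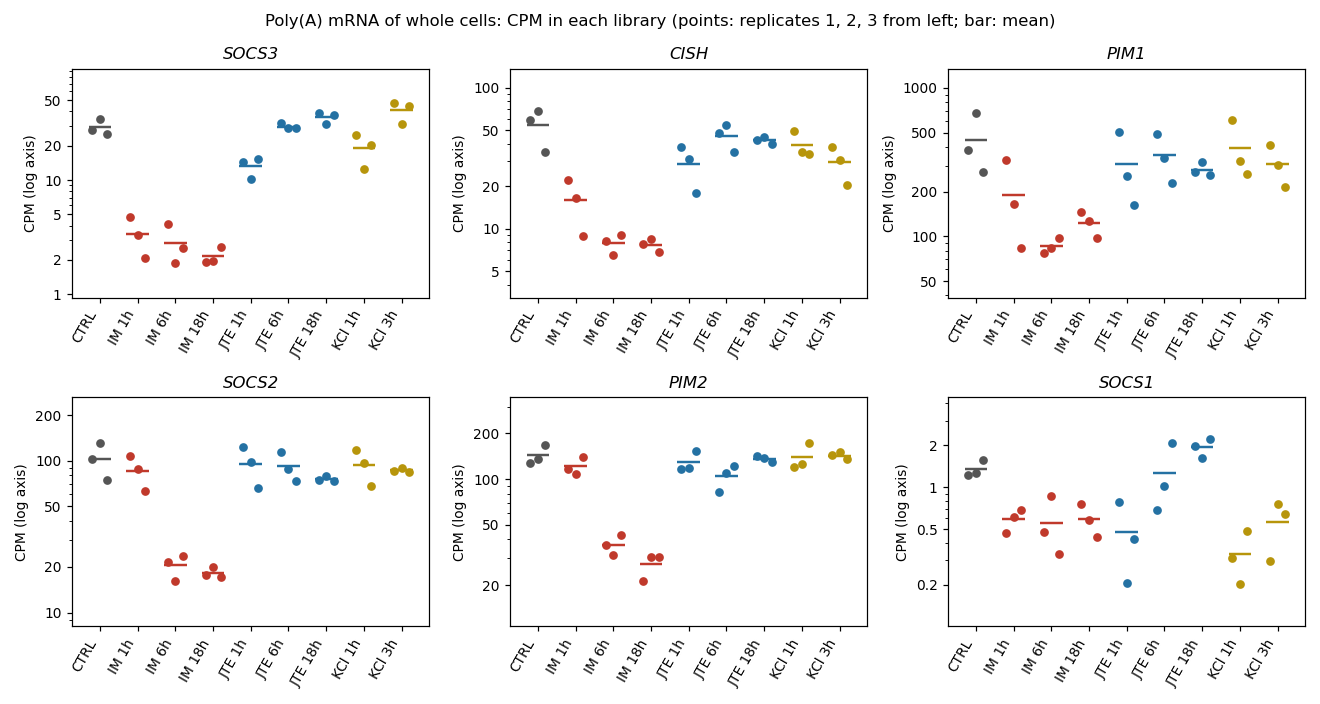
CPM of the 6 tested members in each of the 27 mRNA libraries, on a log axis (points are replicates 1, 2 and 3 from left to right, bars are group means). SOCS3 and CISH are already below CTRL in IM 1h, SOCS2 and PIM2 only from IM 6h, and the PIM1 libraries of CTRL spread from 273 to 675 CPM.

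PIM1 (ENSG00000137193, chr6:37170203-37175426) fell over the imatinib course, but its mRNA libraries spread widely. It stood at 384, 675 and 273 CPM in CTRL and at 327, 164 and 83.0 in IM 1h, so that these groups overlapped, and its change at 1 h was not called (log2 -1.22, SE 0.47, adjusted p = 1.0, edgeR). If CTRL numbers 1 and 2 are exchanged, the IM 1h library of each number is below its CTRL library, but with this block the change was not called either (log2 -1.28, SE 0.30, adjusted p = 0.92, edgeR). At 6 h the 3 libraries held 77.5, 83.5 and 97.2 CPM and at 18 h 145, 126 and 97.2, all below CTRL. The log2 changes then were -2.37 (SE 0.48, adjusted p = 0.0021, edgeR) and -1.85 (SE 0.47, adjusted p = 0.0036, edgeR). In nuclear RNA PIM1 had 510, 650 and 612 CPM in CTRL, 196, 358 and 203 in IM 1h, and 130, 151 and 180 in IM 18h, with no overlap between CTRL and either imatinib group. The nuclear log2 change at 1 h was -1.23 (SE 0.27, adjusted p = 0.34, edgeR). When replicate numbers, by which the nuclear libraries of CTRL and IM 1h pair, entered as a block, it was -1.27 and was called (adjusted p = 0.0053, edgeR), in a fit that called 0.246% of all genes as lower. Over the 13 alternatives its adjusted p ran from 4.5e-24, in the fit without the filter on low counts, to 1.0, and 4 called it.

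SOCS1 (ENSG00000185338, chr16:11254405-11256179), an inhibitor of JAK kinases, was rare in all groups. Its mRNA held 1.21, 1.26 and 1.56 CPM in CTRL, 0.471, 0.609 and 0.689 in IM 1h, 0.474, 0.861 and 0.330 in IM 6h, and 0.760, 0.579 and 0.440 in IM 18h. The imatinib libraries were all below CTRL, at every time alike, but the counts behind them were 6 to 17 per library. Its log2 change was -1.17 at 1 h (SE 0.44, adjusted p = 1.0, edgeR), -1.26 at 6 h (SE 0.44, adjusted p = 0.052) and -1.17 at 18 h (SE 0.44, adjusted p = 0.035). At 6 h it was called with the block of exchanged numbers (log2 -1.24, adjusted p = 0.028), beside 5.31% of all genes lower; over the 14 alternatives adjusted p ran from 0.026 to 0.19, and 6 called it. The call at 18 h ended in 4 of 6 fits without 1 library (CTRL replicates 1 and 3, IM 18h replicates 2 and 3), with adjusted p up to 0.12. In nuclear RNA SOCS1 went from 2.46, 2.87 and 3.66 CPM in CTRL to 1.45, 1.87 and 1.48 in IM 1h and 1.18, 1.43 and 1.81 in IM 18h. The nuclear change at 1 h was -0.89 on the log2 scale (SE 0.22, adjusted p = 0.34, edgeR), called with the replicate block (adjusted p = 0.017) and by no other of the 13 alternatives, and at 18 h it was -1.03 (SE 0.22, adjusted p = 0.00073). SOCS1 lies inside RMI2, a gene on the other strand whose exons it does not share. RMI2 rose at 18 h, by 1.25 in mRNA and 0.98 in nuclear RNA on the log2 scale, and how many of its reads were counted for SOCS1 was not tested.

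SOCS2 and PIM2 followed another course. SOCS2 (ENSG00000120833, chr12:93569814-93583487), best known as a brake on growth hormone signaling, held 103, 131 and 74.2 CPM in mRNA CTRL and 107, 87.6 and 62.9 in IM 1h. It then stood at 21.6, 16.2 and 23.5 in IM 6h and at 17.7, 19.8 and 17.3 in IM 18h. The 1 h libraries overlapped those of CTRL, whereas all libraries of 6 and 18 h were far below. At 1 h its log2 change was -0.26 with a 95% interval from -0.73 to 0.21, at 6 h -2.33 (SE 0.24) and at 18 h -2.49 (SE 0.25). PIM2 (ENSG00000102096, chrX:48913182-48919024) held 128, 135 and 168 CPM in mRNA CTRL, 117, 108 and 139 in IM 1h, 36.6, 31.7 and 42.5 in IM 6h, and 21.3, 30.6 and 30.4 in IM 18h. Its log2 change was -0.25 at 1 h (95% interval -0.58 to 0.09), -1.96 at 6 h (SE 0.17) and -2.39 at 18 h (SE 0.18).

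The same order was seen in the nucleus. Nuclear SOCS2 had 102, 75.4 and 80.3 CPM in CTRL, 84.0, 71.9 and 61.2 in IM 1h and 15.4, 16.5 and 12.9 in IM 18h. Nuclear PIM2 had 202, 221 and 217 CPM in CTRL, 196, 181 and 194 in IM 1h and 25.4, 37.5 and 38.4 in IM 18h. PIM2 at 1 h was below CTRL in each library yet kept 89.3% of the mean, with a log2 change of -0.16 (95% interval -0.42 to 0.09). At 18 h PIM2 had fallen by 2.66 (SE 0.13) and SOCS2 by 2.52 (SE 0.16) on the log2 scale. OTUD5, which ends 3003 bases upstream of PIM2 on the same strand, was not called in any of the 12 comparisons with CTRL, with log2 changes between -0.01 and 0.19. SOCS2-AS1, an antisense gene that shares 277 exon bases with SOCS2, fell by 0.88 in mRNA at 6 h and by 1.00 in nuclear RNA at 18 h.

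At 6 h of imatinib 5 of 6 tested members were lower in mRNA, beside 4.12% of all genes, and at 18 h all 6 were, beside 13.2%. In nuclear RNA at 18 h all 6 were lower, beside 15.4% of all genes. The median log2 change of the 6 members was -2.35 at 6 h and -2.44 at 18 h in mRNA and -2.59 at 18 h in nuclear RNA, and the median of all genes was 0.04, 0.04 and 0.00. DESeq2 called all 6 at 6 h as well.

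**Figure D2:**
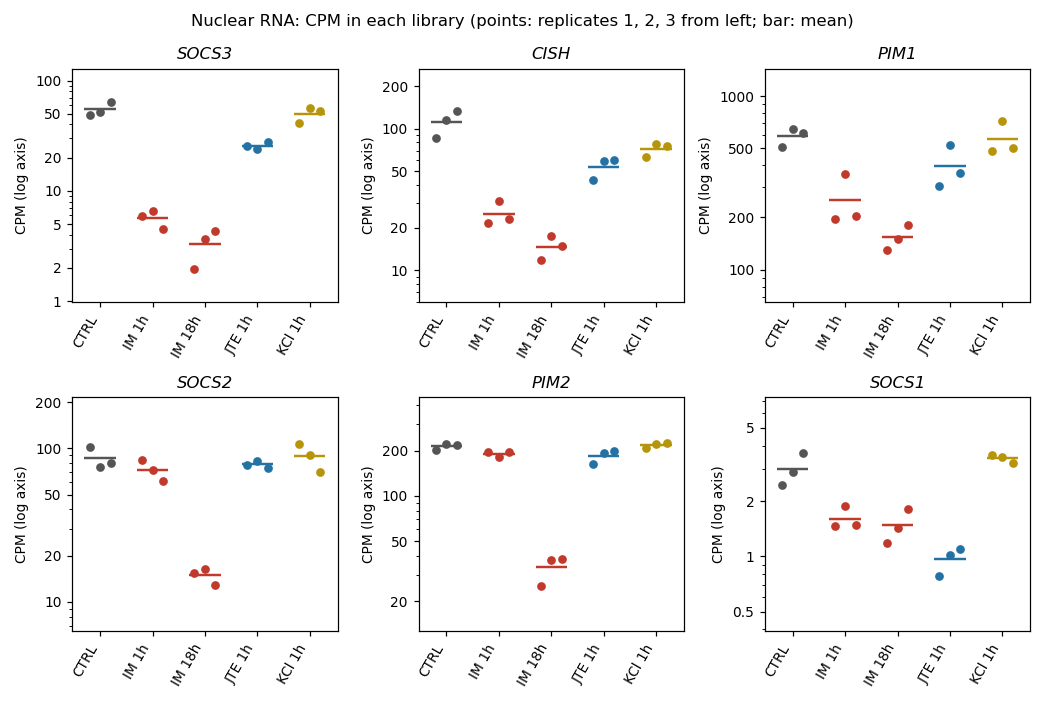
CPM of the 6 tested members in each of the 15 nuclear RNA libraries, on a log axis (points are replicates 1, 2 and 3 from left to right, bars are group means). SOCS3 and CISH fall in IM 1h and IM 18h, SOCS2 and PIM2 in IM 18h, and JTE 1h lies between CTRL and IM 1h for SOCS3 and CISH.

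The time points were then compared with each other. From IM 1h to IM 6h in mRNA, 3 of 6 members fell further, beside 3.62% of all genes. These were SOCS2 by 2.07 on the log2 scale (SE 0.24, adjusted p = 7.4e-06, edgeR), PIM2 by 1.72 (SE 0.17, adjusted p = 1.6e-06) and CISH by 1.01 (SE 0.31, adjusted p = 0.035). Of the 6 fits without 1 library, 5 lost the call for CISH (all but that without IM 1h replicate 3), with adjusted p up to 0.17, and it was not called when IM 1h and IM 6h alone were fitted (adjusted p = 0.062). PIM1 had a log2 difference of -1.15 (SE 0.47, adjusted p = 0.11, edgeR), called with the block of exchanged numbers at -0.92 (adjusted p = 0.038), beside 4.85% of genes lower, but not with the numbers of the titles (adjusted p = 0.074). Over its alternatives adjusted p ran from 4.5e-19 to 0.50. From IM 6h to IM 18h no member was called at a background of 4.41% of genes in either direction, and the log2 differences ran from -0.43 for PIM2 to 0.52 for PIM1; 1 member had an unadjusted p under 0.05, and DESeq2 called none. From IM 1h to IM 18h in nuclear RNA, 5 of 6 members fell, beside 14.5% of all genes. PIM2 fell by 2.50 (SE 0.13) and SOCS2 by 2.27 (SE 0.16), more than SOCS3 by 0.81, CISH by 0.77 and PIM1 by 0.71 in log2 values. The PIM1 call rested on each of the IM 18h libraries and on IM 1h replicate 2: leaving out 1 of them gave log2 differences from -0.84 to -0.30 and adjusted p up to 0.33. It was also lost with RLE size factors (adjusted p = 0.053) and with library totals (adjusted p = 0.10). That of CISH rested on IM 1h replicate 2, without which its log2 difference was -0.52. SOCS1 had a log2 difference of -0.14 there (95% interval -0.64 to 0.35).

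**Figure D3:**
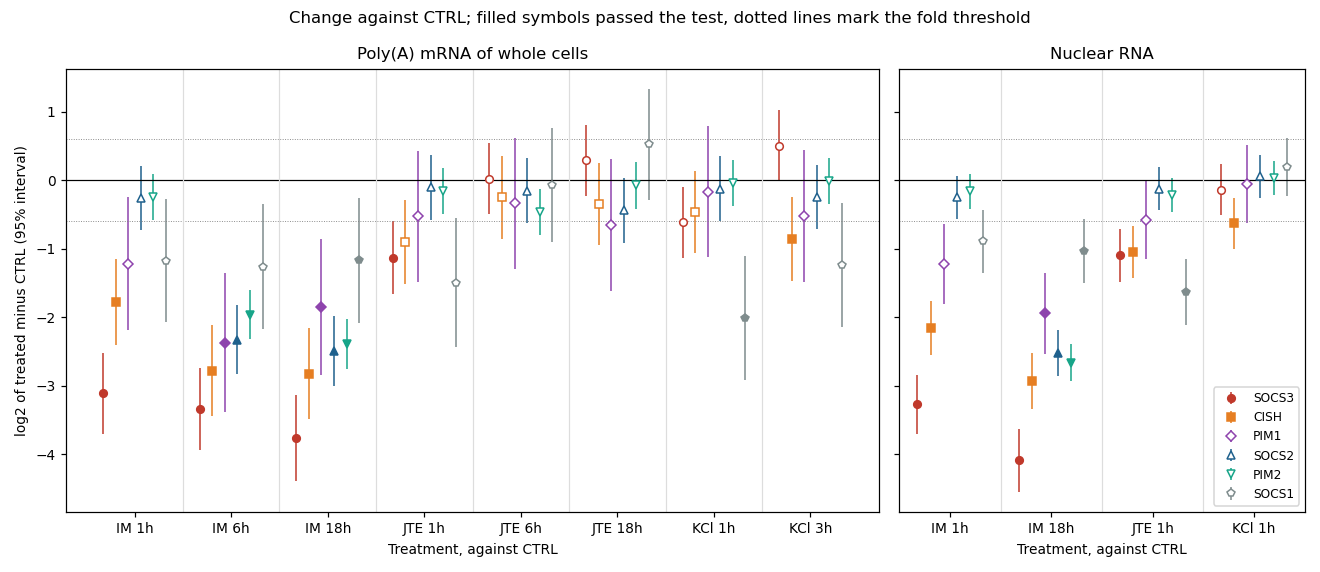
Log2 change of the 6 tested members against CTRL in each treatment, with 95% intervals, for mRNA (left) and nuclear RNA (right); filled symbols passed the test and dotted lines mark log2 changes of 0.6 in either direction. Under imatinib the changes reach -3.76 in mRNA and -4.08 in nuclear RNA, both of SOCS3, whereas under JTE-607 and KCl those that passed lie between -2.01 and -0.63.

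JTE-607 lets transcription run past the normal ends of genes. After 1 h of it, 1 of 6 members was lower in mRNA, beside 0.464% of all genes, and 3 of 6 were lower in nuclear RNA, beside 1.51%. SOCS3 mRNA had 14.4, 10.2 and 15.2 CPM, below all CTRL libraries, and fell by 1.13 on the log2 scale (SE 0.26, adjusted p = 0.030, edgeR). Leaving out CTRL replicate 1, CTRL replicate 2 or any JTE 1h library ended this call, with adjusted p up to 0.17, as did fitting JTE 1h and CTRL alone (adjusted p = 0.16). Nuclear SOCS3 had 25.4, 24.0 and 27.6 CPM and fell by 1.10 (SE 0.18, adjusted p = 0.00055, edgeR). Nuclear CISH had 43.3, 59.0 and 59.8 CPM and fell by 1.05 (SE 0.18, adjusted p = 0.00078). Nuclear SOCS1 had 0.783, 1.02 and 1.09 CPM and fell by 1.63 (SE 0.23, adjusted p = 8.6e-05). Each of these nuclear groups was below every CTRL library. In mRNA, CISH and SOCS1 had log2 changes of -0.90 (SE 0.29, adjusted p = 0.22) and -1.49 (SE 0.45, adjusted p = 0.16), and the CISH libraries overlapped CTRL. With the block of exchanged numbers CISH was called (log2 -0.90, adjusted p = 0.012, edgeR), beside 0.868% of genes lower. Over its alternatives adjusted p ran from 8.9e-06, in the fit without the filter on low counts, to 0.85. PIM1 in nuclear RNA had a log2 change of -0.57 (SE 0.26, adjusted p = 0.23) and of -0.60 with the replicate block, where it was called (adjusted p = 0.026), beside 2.84% of all genes lower; over its alternatives adjusted p ran from 1.1e-05 to 0.59. SOCS2 and PIM2 had log2 changes between -0.22 and -0.10 in the 2 fractions.

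At the later times of JTE-607 no member was called against CTRL. This was 0 of 6 at 6 h, where edgeR called 13.2% of all genes in either direction, and 0 of 6 at 18 h, where it called 5.39%; log2 changes ran from -0.46 to 0.02 and from -0.66 to 0.52. At an unadjusted p under 0.05 there was 1 member at 6 h (PIM2) and 0 at 18 h, and DESeq2 called none. SOCS3 stood at 31.5, 28.3 and 28.4 CPM in JTE 6h and at 38.6, 30.9 and 37.0 in JTE 18h, within or above the range of CTRL. From JTE 1h to JTE 6h, 2 of 6 members rose, beside 5.1% of all genes. SOCS3 rose by a log2 value of 1.15 (SE 0.26, adjusted p = 0.0034, edgeR) and SOCS1 by 1.42 (SE 0.46, adjusted p = 0.039). The SOCS1 call ended when JTE 1h replicate 2, JTE 1h replicate 3 or JTE 6h replicate 3 was left out, with adjusted p up to 0.33, and when JTE 1h and JTE 6h alone were fitted (adjusted p = 0.21). CISH had a log2 difference of 0.65 (SE 0.29, adjusted p = 0.17, edgeR), called with the replicate block at 0.68 (adjusted p = 0.021), in a fit with 6.52% of genes higher; over its alternatives adjusted p ran from 0.0043 to 0.50. From JTE 6h to JTE 18h none was called by edgeR or DESeq2, with 1 member at an unadjusted p under 0.05, at a background of 13.4% of genes in either direction.

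KCl touched single members. At 1 h, 1 of 6 was lower in mRNA, beside 2.94% of all genes, and 1 of 6 in nuclear RNA, beside 8.5%, shares in which 1 gene of 6 says little about the group. SOCS1 mRNA held 0.311, 0.201 and 0.488 CPM at 1 h, below all CTRL libraries, and fell by 2.01 on the log2 scale (SE 0.44, adjusted p = 0.0043, edgeR). The call held in each of the 6 fits without 1 library, those without one of the deeper KCl 1h libraries included. SOCS3 mRNA, at 24.6, 12.4 and 20.3 CPM, was also below CTRL, with a log2 change of -0.62 (adjusted p = 0.20, edgeR). With the block of exchanged numbers it was called (log2 -0.65, adjusted p = 0.013), beside 3.77% of genes lower; over its alternatives adjusted p ran from 0.013 to 0.69. Nuclear SOCS1 had 3.57, 3.49 and 3.20 CPM, overlapping CTRL, with a log2 change of 0.19 (95% interval -0.23 to 0.62). Nuclear CISH had 62.9, 77.8 and 76.0 CPM, all below CTRL, and fell by 0.63 (SE 0.18, adjusted p = 0.011, edgeR), a call that needed both nuclear CTRL replicate 3 and KCl 1h replicate 1. At 3 h CISH mRNA had 38.2, 30.7 and 20.4 CPM, overlapping CTRL, and fell by 0.86 (SE 0.29, adjusted p = 0.049). It was the only member called lower at 3 h, beside 7.33% of genes. Leaving out CTRL replicate 1 or 2 or KCl 3h replicate 2 or 3 ended the call, with adjusted p up to 0.22, as did RLE size factors (adjusted p = 0.050) and fitting KCl 3h and CTRL alone (adjusted p = 0.082). SOCS1 mRNA at 3 h held 0.294, 0.756 and 0.643 CPM, which is 42.0% of the CTRL mean and below every CTRL library, with a log2 change of -1.24 (SE 0.44, adjusted p = 0.057, edgeR). It was called with the block of exchanged numbers (adjusted p = 0.031), beside 8.65% of genes lower; over its alternatives adjusted p ran from 0.031 to 0.22. SOCS3 mRNA then rose from its 1 h values to 47.3, 31.1 and 44.8 at 3 h. The difference, a log2 value of 1.12 (SE 0.25, adjusted p = 0.0080, edgeR), was the only call between the KCl times, beside 1.37% of genes called higher, and it was not called without KCl 1h replicate 2 (adjusted p = 0.074) or with the KCl groups alone (adjusted p = 0.074). SOCS2 and PIM2 had log2 changes between -0.25 and 0.05 against CTRL in the 3 KCl comparisons.

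The treatments were also compared directly, which shares no control between the arms. At 1 h in mRNA, imatinib left less SOCS3 than JTE-607 by 1.98 on the log2 scale (SE 0.28, adjusted p = 0.00043, edgeR), the 1 member of 6 lower, beside 0.42% of all genes. It was not called when these 2 groups alone were fitted (adjusted p = 0.10). CISH had a log2 difference of -0.87 (SE 0.30, adjusted p = 0.25), and of -0.88 with the replicate block, where it was called (adjusted p = 0.027) beside 0.608% of genes; over its alternatives adjusted p ran from 1.2e-05 to 0.84. In nuclear RNA at 1 h, SOCS3 and CISH, 2 of 6 members, were lower with imatinib than with JTE-607, beside 7.42% of all genes. The log2 differences were -2.17 for SOCS3 (SE 0.20) and -1.11 for CISH (SE 0.18). With the block in nuclear RNA, PIM1 was also called lower with imatinib (log2 -0.66, adjusted p = 0.024, edgeR) and SOCS1 higher (log2 0.74, adjusted p = 0.040), beside 8.8% and 1.08% of all genes. SOCS1 then had 1.45, 1.87 and 1.48 CPM in IM 1h against 0.783, 1.02 and 1.09 in JTE 1h. Over their alternatives adjusted p ran from 4.2e-07 to 0.55 for PIM1 and from 0.040 to 0.34 for SOCS1. At 6 h all 6 members were lower with imatinib, beside 10.2% of genes, and at 18 h all 6, beside 13.6%, with log2 differences from -3.36 to -1.19 and from -4.05 to -1.19. At 6 h the SOCS1 call ended when either of IM 6h replicates 1 and 3 or JTE 6h replicate 3 was left out, with adjusted p up to 0.35, with library totals (adjusted p = 0.069) and when the 2 groups alone were fitted (adjusted p = 0.11). At 18 h the PIM1 call was lost without any one of the 6 libraries, with adjusted p between 0.065 and 0.13. Against KCl at 1 h, imatinib left less SOCS3 (log2 -2.49, SE 0.28) and CISH (log2 -1.31, SE 0.30) in mRNA, 2 of 6 members beside 2.59% of genes. The CISH call ended when the 2 groups alone were fitted (adjusted p = 0.051). PIM1 had a log2 difference of -1.05 (adjusted p = 0.24, edgeR), called with the block of exchanged numbers at -1.12 (adjusted p = 0.021), beside 3.59% of genes lower, but not with the numbers of the titles (adjusted p = 0.054). Over its alternatives adjusted p ran from 6.6e-16 to 0.70. In nuclear RNA, 4 of 6 were lower than with KCl, beside 15.7% of genes, namely SOCS3 by 3.13, CISH by 1.53, PIM1 by 1.17 and SOCS1 by 1.09 on the log2 scale.

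The nuclear and the mRNA response to the same treatment were compared as an interaction over 12 libraries. For imatinib no member was called. At 1 h the differences, nuclear minus mRNA, ran from -0.37 for CISH (95% interval -1.37 to 0.63) to 0.28 for SOCS1, and edgeR called 0% of 19420 genes, with 395 at an unadjusted p under 0.05. Of the members none had an unadjusted p under 0.05 for imatinib or JTE-607, and DESeq2 called none. At 18 h they ran from -0.27 for SOCS3 (95% interval -0.94 to 0.40) to 0.19 for SOCS1, at a background of 0.0901% of genes called. For JTE 1h they lay between -0.12 and 0.06, with a background of 0.0605%. The intervals differ in width, at 1 h of imatinib from -0.26 to 0.43 for PIM2 and from -1.63 to 1.64 for PIM1. Differences within the interval of a member were not resolved by this fit. With the block of exchanged numbers the PIM1 difference at 1 h of imatinib was 0.05 (SE 0.30). For KCl 1h, SOCS1 was the only member called, beside 0.588% of genes called higher. Its response was higher in nuclear RNA by a log2 value of 2.11 (SE 0.42, adjusted p = 0.031, edgeR). This call was lost in 8 of 12 fits without 1 library, with adjusted p up to 0.10.

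**Figure D4:**
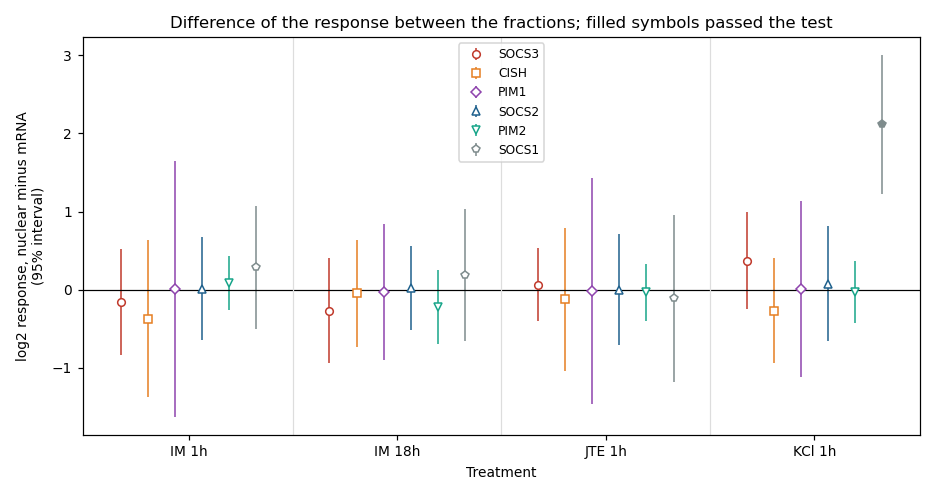
Log2 response of the 6 tested members in nuclear RNA minus that in mRNA, with 95% intervals, for the 4 treatments measured in both fractions; the filled symbol passed the test. Only SOCS1 at KCl 1h, with 2.11, stands apart, and the other intervals all include 0.

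Among the paralogues, which share domains with the members, SOCS4 to SOCS7 and PIM3 were tested. None of 5 was called after 1 h of imatinib in either fraction by edgeR or DESeq2 (0 in mRNA and 1 in nuclear RNA at an unadjusted p under 0.05). PIM3 was called lower at 6 h, beside 4.12% of all genes. At 18 h, 2 of 5 had fallen in mRNA, beside 13.2% of all genes, where the median of the 5 was -0.31 on the log2 scale, and 2 of 5 in nuclear RNA, beside 15.4%, PIM3 and SOCS4 each time. PIM3, the third PIM kinase, went from 20.0 ± 4.15 to 9.86 ± 0.810 CPM in mRNA (log2 -1.02, SE 0.20) and SOCS4 from 40.2 ± 2.91 to 23.3 ± 1.86 (log2 -0.79, SE 0.13). With JTE 1h, SOCS5 and SOCS6 fell in mRNA, by 0.72 and 0.85 on the log2 scale, beside 0.464% of all genes lower, and with KCl 3h SOCS4 and SOCS6 fell, by 0.85 and 0.81, beside 7.33%.

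The JAK-STAT pathway list held 17 genes, of which 15 passed the filter in mRNA and 16 in nuclear RNA. None was called at IM 1h in either fraction by edgeR or DESeq2, or had an unadjusted p under 0.05, where the list's median log2 change was 0.01 in mRNA and -0.01 in nuclear RNA. At IM 18h, 4 were higher and 1 lower in each fraction, beside 17.2% of all genes higher in each and 13.2% lower in mRNA and 15.4% in nuclear RNA, and the median log2 change was 0.16 in mRNA and 0.19 in nuclear RNA. The 1 that fell was STAT5A, which with STAT5B encodes the factor, from 490 ± 44.7 to 264 ± 34.5 CPM in mRNA (log2 -0.89, SE 0.15) and from 702 ± 35.6 to 320 ± 61.6 in nuclear RNA (log2 -1.14, SE 0.11). STAT5B had log2 changes in the other direction at IM 18h, of 0.47 in mRNA (SE 0.20, adjusted p = 0.064, edgeR) and 0.41 in nuclear RNA (SE 0.10, adjusted p = 0.0025), the latter short of the fold threshold. STAT5A had already fallen by 0.74 on the log2 scale in mRNA at IM 6h, beside 4.12% of all genes lower. It also fell at JTE 18h, from 490 ± 44.7 to 272 ± 9.89 CPM, beside 5.39% of all genes in either direction. A link between its level and the members was not tested. Those that rose at IM 18h were STAT2, from 41.7 ± 4.65 to 129 ± 15.6 CPM in mRNA, JAK2, from 62.0 ± 9.71 to 136 ± 2.78, STAT6, from 38.8 ± 4.09 to 63.1 ± 2.11, and PTPN6, which encodes the phosphatase SHP-1, from 1.63 ± 0.272 to 3.42 ± 0.284. PTPN6 also rose in mRNA at JTE 18h (log2 1.03), beside 5.39% of all genes in either direction. It rose in nuclear RNA at KCl 1h (log2 1.13) too, beside 15.3% higher. At JTE 6h STAT6 (log2 -0.67) and PIAS3 (log2 -0.86) fell, beside 13.2% of genes in either direction. Of the OSM receptor genes and the sister cytokine LIF, 3 of 4 were tested and none was called in mRNA under any treatment by edgeR or DESeq2, with at most 1 gene per comparison at an unadjusted p under 0.05. The shares of all genes there included 17.2% higher at IM 18h and 13.2% in either direction at JTE 6h, at which 0 of 3 says little. In nuclear RNA IL6ST, the shared receptor chain gp130, rose at IM 18h by a log2 value of 0.71, beside 17.2% of all genes higher. OSMR, the chain that binds OSM together with it, rose at nuclear KCl 1h from 2.24 ± 0.353 to 11.1 ± 0.765 CPM, beside 15.3%.

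Of 7 other genes known as STAT5 targets, 6 were tested, and 5 of them fell in mRNA at IM 6h, beside 4.12% of all genes, and at IM 18h, beside 13.2%, and in nuclear RNA at IM 18h, beside 15.4%. Their median log2 change was -1.58 at IM 6h and -1.36 at IM 18h in mRNA. At IM 18h CCND2, a cyclin of the G1 phase, went from 202 ± 28.5 to 38.5 ± 2.28 CPM in mRNA, BCL2L1, which encodes the survival factor BCL-XL, from 99.7 ± 12.9 to 45.2 ± 4.79, MCL1, another survival factor, from 388 ± 55.3 to 180 ± 2.57, and MYC from 292 ± 70.7 to 97.7 ± 14.2. ID1, an inhibitor of basic helix-loop-helix factors, was the 1 gene of this list that edgeR called at IM 1h, in nuclear RNA, where it went from 60.8 ± 1.04 to 15.5 ± 1.78 CPM (log2 -1.97, SE 0.25, adjusted p = 0.0069, edgeR). DESeq2 called ID1 in mRNA as well (log2 -1.50, adjusted p = 0.0030), and in nuclear RNA also MYC as lower (log2 -0.88, adjusted p = 0.0024) and BCL6 as higher (log2 1.20, adjusted p = 0.017). At an unadjusted p under 0.05 in edgeR there were 3 of the 6 genes in each fraction. The difference between the fractions was not tested for ID1. The fall of ID1 was not limited to imatinib. In nuclear JTE 1h it was called lower as well (log2 -1.22, adjusted p = 0.0038, edgeR), beside 1.51% of all genes lower. So it was in mRNA at JTE 6h (log2 -0.93), beside 13.2% of genes in either direction, and at KCl 3h (log2 -1.02), beside 7.33% lower. BCL6, which STAT5 is known to repress, rose in nuclear RNA at IM 18h from 2.82 ± 0.594 to 4.77 ± 1.03 CPM. It also rose in JTE 6h by a log2 value of 1.13, beside 6.73% of genes higher, in KCl 3h by 2.28, beside 4.55%, and in nuclear KCl 1h by 1.80, beside 15.3%.

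For each tested member up to 3 genes with the most similar pattern are given, from 9603 candidates, by Pearson's r over the 14 group means, centered within each fraction. These are descriptions over 14 points that share their CTRL groups. SOCS3 was closest to CISH (r = 0.95), GADD45A (r = 0.95) and PIM1 (r = 0.93), and CISH to PIM1 (r = 0.97), ITPRIP (r = 0.96) and GADD45A (r = 0.96). PIM1 was closest to CISH, MYC (r = 0.97) and ITPRIP (r = 0.93). SOCS2 was closest to RRP1B, PROSER2-AS1 and POLR3D (r = 0.99 each) and PIM2 to SURF6 and MAGI1 (r = 0.99 each), while SOCS2 and PIM2 had r = 0.98 with each other. The highest values of SOCS1 were lower, with SELENOW (r = 0.84), MPRIP (r = 0.81) and FAM83A-AS1 (r = 0.77).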

How the data were processed

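Counts of read pairs per gene were deposited for 42 libraries. The authors trimmed and deduplicated the reads with FASTP, aligned them to hg38 with STAR, kept uniquely mapped reads and counted pairs on exons with featureCounts, without a strand option; pairs over more than 1 gene were left out. The annotation release is not given in the sources used here. Duplicates were removed without molecular identifiers, which may understate abundant transcripts.

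The 7 members and the gene lists were chosen with earlier results of these data known. Named were the members, genes of 4 lists (paralogues, JAK-STAT pathway, OSM receptors, other STAT5 targets), genes overlapping or within 10000 bases of a member, and the 3 most similar genes per member (mean CPM of 5 or more in both fractions, log2 of CPM + 0.5). All libraries of a fraction entered 1 fit in edgeR 4.0.16 (R 4.3.3, quasi-likelihood test, robust dispersion, TMM, filterByExpr), with 18095 genes tested in mRNA and 21929 in nuclear RNA and p-values adjusted over all of them; thresholds were an adjusted p of 0.05 and a log2 change of 0.6. In all, 28 comparisons were made. The alternatives were DESeq2 1.42.0, RLE size factors, library totals, all genes with a count, no threshold on the fold, only the groups compared, a replicate block, and leaving out each library. The fits were tested on simulated counts. Some items are not reported here.

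Replicates of a group differed by more than sampling noise (chi-square per gene from 2.37 to 62.5). Replicate numbers come from the titles. Deviations of libraries from their group mean correlated between same-numbered nuclear libraries of CTRL and treatments by 0.235 to 0.891, so these numbers pair the libraries, as they did in mRNA between treatments at 1 h (0.755 to 0.845) and from JTE 1h to JTE 6h (0.650 to 0.799). Between nuclear IM 1h and IM 18h the lowest such correlation was 0.0094, so these 2 groups did not pair. By the titles, mRNA CTRL libraries did not pair with treated libraries. The study's list of mapped reads gives the totals of mRNA CTRL libraries 1 and 2 under each other's number. With these 2 numbers exchanged the correlations were 0.121 to 0.877, apart from JTE 18h (lowest 0.0553). The titles were kept, and a block with the exchanged numbers was added after seeing the data.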

Additional observations from a re-analysis of the deposited data

Results flagged for a closer look

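Groups held 3 libraries, too few for a test of a library far from the others. The results below are differences between time points of 1 treatment, or of a response between fractions. They passed the test of the difference itself (edgeR, adjusted over all genes). Between times, time in culture cannot be told apart from treatment. Several of these calls were lost in fits without 1 library, as given with the results above. In mRNA the log2 difference of IM 6h from IM 1h was -1.01 for CISH, -1.72 for PIM2 and -2.07 for SOCS2. In nuclear RNA the log2 difference of IM 18h from IM 1h was -0.77 for CISH, -0.71 for PIM1, -2.50 for PIM2, -2.27 for SOCS2 and -0.81 for SOCS3. JTE 6h exceeded JTE 1h by 1.42 for SOCS1 and 1.15 for SOCS3, and KCl 3h exceeded KCl 1h by 1.12 for SOCS3. The KCl 1h effect on SOCS1 was higher in nuclear RNA than in mRNA by 2.11, where nuclear CTRL and KCl 1h held 55 to 75 counts per library and mRNA CTRL and KCl 1h held 6 to 28.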

How the results depend on the processing

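Over the alternatives, 355 counts of members called stayed within 1.5 times the reported count and 50 did not; of single values, 1319 kept direction and side of the threshold, 65 lost a call, 22 gained one and 34 changed sign, all of them uncalled. DESeq2 and scaling by library totals moved no count beyond 1.5 times. Fitting only the groups compared (6 libraries) left 1 member called at IM 1h in mRNA, 0 at JTE 1h in mRNA, 0 at KCl 3h, 1 from JTE 1h to JTE 6h, 0 between the KCl times, 0 between IM 1h and JTE 1h in mRNA and 1 between IM 1h and KCl 1h in mRNA. Without the filter on low counts there were 2 calls at JTE 1h in mRNA, 1 at JTE 18h, 2 at KCl 3h, 3 between IM 1h and JTE 1h in mRNA and 2 at nuclear KCl 1h; PIM1 at IM 1h was then called in mRNA (adjusted p = 2.2e-19, edgeR) although its groups overlap, and the cause was not tested. With RLE size factors 0 were called at KCl 3h. The replicate block gave 2 calls at JTE 1h in mRNA, 2 at KCl 1h in mRNA, 2 at KCl 3h, 2 between IM 1h and JTE 1h in mRNA, 4 at nuclear IM 1h and 4 between nuclear IM 1h and JTE 1h. By the numbers of the titles mRNA CTRL and treated libraries did not pair: the lowest correlation was -0.368, and at most 1 of 3 libraries correlated best with its own number. With mRNA CTRL numbers 1 and 2 exchanged, the replicate block gave 2 calls each at JTE 1h, KCl 1h and KCl 3h and 2 between IM 1h and JTE 1h, all in mRNA. Among comparisons whose libraries pair, the block changed no call beyond those given beside the results.

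Leaving out 1 library at a time gave between 1 and 2 calls at IM 1h in mRNA, 2 and 3 at nuclear IM 1h, 3 and 6 from nuclear IM 1h to IM 18h, 2 and 4 from IM 1h to IM 6h, 0 and 1 at JTE 1h in mRNA, 1 and 2 from JTE 1h to JTE 6h, 1 and 2 at nuclear KCl 1h, 0 and 1 in the KCl 1h difference between fractions, 0 and 1 at KCl 3h, 0 and 1 between the KCl times, and 2 and 3 between nuclear IM 1h and JTE 1h. The highest counts from nuclear IM 1h to IM 18h and at nuclear KCl 1h include OSM, which passed the filter in some of these fits. So do the highest counts at nuclear IM 18h (7) and between nuclear IM 1h and KCl 1h (5). Values near 0 changed sign. SOCS3 at JTE 6h (0.02) was -0.055 with library totals, -0.034 without the filter and -0.0029 with the block. PIM2 at KCl 3h (-0.01) was 0.0072 with the block and 0.0060 with exchanged numbers, and nuclear PIM2 at KCl 1h (0.03) was -0.0037 without the filter and -0.017 with only the groups compared. Without 1 library the log2 changes in mRNA ran from -0.32 to 0.12 for SOCS2 at JTE 1h; at JTE 6h from -0.64 to 0.21 for SOCS1, -0.37 to 0.035 for SOCS2, -0.10 to 0.13 for SOCS3 and -0.65 to 0.074 for PIM1; from -0.15 to 0.032 for PIM2 at JTE 18h; at KCl 1h from -0.33 to 0.085 for SOCS2, -0.61 to 0.26 for PIM1 and -0.22 to 0.064 for PIM2; and from -0.085 to 0.10 for PIM2 at KCl 3h. In nuclear RNA they ran from -0.20 to 0.015 for SOCS2 at JTE 1h and at KCl 1h from -0.10 to 0.21 for SOCS2, -0.26 to 0.050 for PIM1 and -0.029 to 0.065 for PIM2. Of the 3 most similar genes, Spearman's rho shared 2 for CISH and 0 for the other members. With library totals the median of all genes moved from -0.01 to 0.12 between IM 6h and JTE 6h, and the share of calls that were higher from 61.1 to 74.0% at JTE 18h against CTRL. SOCS1, with 4 to 43 counts per mRNA library, and OSM, with 0 to 11, are limited by depth, and PIM1 in mRNA by the spread of its CTRL libraries.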

Other observations

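ENSG00000280382, a long noncoding gene 5341 bases downstream of CISH on the same strand (chr3:50599879-50601148), rose in nuclear RNA at JTE 1h and KCl 1h. It had 4 counts over the 3 nuclear CTRL libraries, 87 over those of JTE 1h (log2 4.21, SE 0.60, adjusted p = 8.7e-05, edgeR) and 43 over those of KCl 1h (log2 3.39, SE 0.66, adjusted p = 0.00041), and 4 and 5 over those of IM 1h and IM 18h (log2 0.06 and 0.34, not called), the groups in which nuclear CISH was lowest. In mRNA it held 0 to 6 counts per group.

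Without the filter on low counts OSM entered the tests, and edgeR called it higher than CTRL in nuclear RNA at IM 18h (adjusted p = 0.030) and at KCl 1h (adjusted p = 0.0090) and in none of the 8 mRNA comparisons, at 24, 29 and 7 counts in the nuclear IM 18h, KCl 1h and CTRL groups. These adjusted p-values are those of the fit without the filter. With the filter and 1 library left out, up to 7 members were called at nuclear IM 18h and up to 2 at nuclear KCl 1h. These highest counts include OSM. In mRNA the fit without the filter also called PIM1 at IM 1h although its groups overlap. In nuclear RNA the lowest KCl 1h and the highest CTRL library both held 5 OSM counts. OSM was the 1 member with more nuclear counts in imatinib at 18 h than in CTRL. ENSG00000279699, 8374 bases upstream of OSM on the same strand, also rose in nuclear RNA at IM 18h (log2 2.01, adjusted p = 0.0019), and its part in the OSM counts was not tested.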
